A study of Mus musculus with 6 samples.

Results

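The 10 genes described here move bile acids and other organic anions through the hepatocyte or control that traffic through FXR, the bile acid receptor. They were taken from the deposited array table as all probe sets that the platform annotation names with exactly 1 of the symbols Slc10a1, Slco1a1, Slco1a4, Slco1b2, Abcb11, Abcb4, Abcc2, Abcc3, Nr1h4 and Nr0b2. This gave 16 probe sets of 22626 analysed, for 10 of 12393 genes named by 1 symbol. Each of 6 arrays measured the liver of 1 male mouse of the strain KK/H1J, in which many genes together lead to obesity and diabetes. All were 12 to 14 weeks old by their labels, weighed about 35 g, were fed freely and housed singly, and received an adenovirus through the tail vein at the same stated dose. In 3 mice (numbers 23, 28 and 36) the virus carried BPD, that is PFK-2/FBPase-2, an enzyme with a kinase and a phosphatase activity, lacking its bisphosphatase. In the other 3 (numbers 22, 29 and 31) it carried green fluorescent protein (GFP). Livers were collected on day 7, and nothing pairs the mice. No mouse without virus is among the 6, so what both viruses have in common to these genes cannot be seen, and the promoter that drove the inserts is not given in the sources used here.

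Bile acids return to the liver from the gut in portal blood and circulate many times. Hepatocytes take them up across the sinusoidal (basolateral) membrane through the sodium-dependent carrier NTCP (Slc10a1) and the sodium-independent OATP carriers (Slco genes). They export them across the canalicular membrane into bile through ABC pumps, and a smaller flow leaves backwards into blood through pumps such as MRP3 (Abcc3). Bile acids bind FXR (Nr1h4), which pairs with RXR on inverted repeats in DNA, induces the bile salt pump gene Abcb11 and the gene of the repressor SHP (Nr0b2), and so restrains bile acid synthesis and uptake.

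The uptake carriers Slc10a1, Slco1a1 and Slco1b2 fell in BPD livers, by 5.44-fold, 5.12-fold and 3.14-fold on the log2 scale used here (brightest probe set of each). The canalicular pump Abcc2, the basolateral pump Abcc3 and FXR itself fell too, by 2.11-fold, 3.36-fold and 1.88-fold. The bile salt pump Abcb11 fell by 1.55-fold and only just passed the test. The phospholipid flippase Abcb4, the uptake carrier Slco1a4 and SHP did not pass. Of the 15 member probe sets bright enough to be tested, 12 were lower and 0 were higher in BPD livers (limma, adjusted p under 0.05 over 13575 probe sets; 12 lower and 0 higher at an unadjusted p under 0.05). Of all probe sets tested 20.3% were lower and 8.28% higher. The dimmest of the 12, a probe set of Slco1b2, passed the brightness filter through its GFP signals. After centring, 12 of the 15 had all BPD livers below all GFP livers and 0 the reverse, beside 34.0% and 12.7% of all tested. By the brightest probe set of each gene 7 of the 10 genes fell and 3 did not pass.

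How many fell depended on how the arrays were scaled to each other. The values tested were centred on each array's median, because the array medians were 174 to 197 in BPD and 135 to 157 in GFP livers. This put the median of all tested probe sets at -0.21 on the log2 scale (BPD minus GFP), against 0.10 as deposited and -0.06 after quantile normalization. With the deposited scaling 9 member probe sets were lower and 0 higher, beside 9.68% lower and 16.7% higher of all. With quantile normalization 9 were lower and 1 higher (Abcb4), beside 12.0% lower and 12.4% higher of all. Lower under all 3 scalings were 8 probe sets of 5 genes, namely Slc10a1, Slco1a1, Slco1b2, Abcc3 and Nr1h4.

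**Figure D1:**
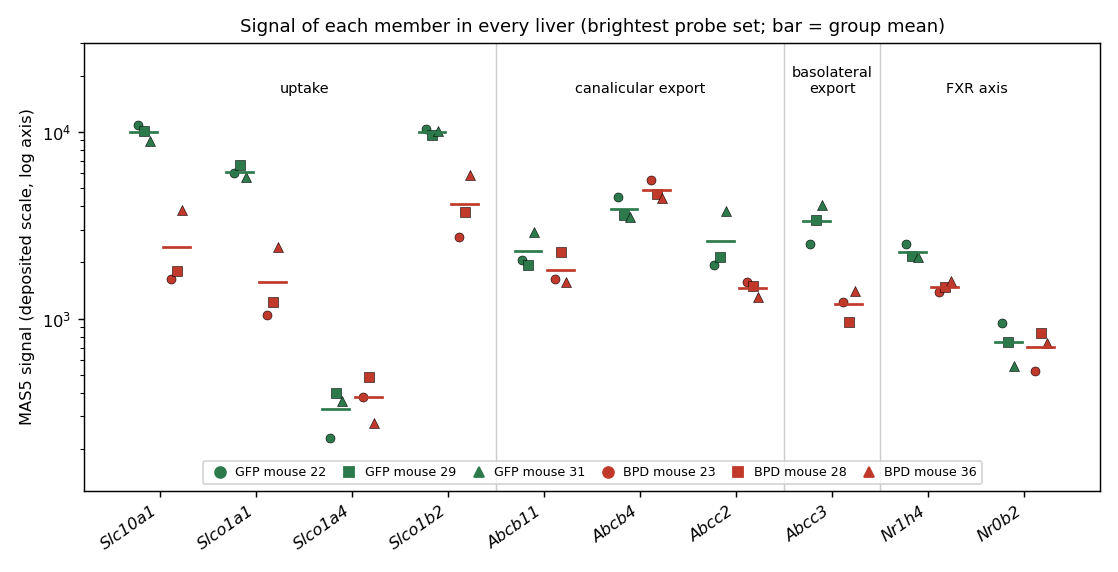
MAS5 signal (deposited scale, log axis) of the 10 genes in each of the 6 livers, by the brightest probe set of each gene; symbols mark mice and bars group means. The BPD livers lie below the GFP livers for Slc10a1, Slco1a1, Slco1b2, Abcc2, Abcc3 and Nr1h4, and the groups overlap for Slco1a4, Abcb11, Abcb4 and Nr0b2. Heights of different genes are not comparable.

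RefSeq promoter windows (assembly GRCm38.p6) were matched by symbol for 9 of the 10 genes. The windows, 250 bases before to 50 after each start, were searched on both strands for the FXR inverted repeat (AGGTCA and TGACCT with 1 free base between them), with at most 2 mismatches, and for the LRH-1 site TCAAGGTCA without mismatch. Its last 6 letters are also the first 6 of the FXR repeat. The FXR repeat was matched in Abcb11 and Slco1b2, and in 1.14% of all 32851 windows. In Abcb11 a match with 1 mismatch lay 63 to 51 bases before the start, and one with 2 mismatches lay 94 to 82 bases before it. In Slco1b2 a match with 1 mismatch lay 88 to 76 bases before the start. The LRH-1 site was matched in 0 of the members' 10 windows (Slc10a1 has a pair) and in 0.423% of all. A match of letters is not a measured binding site. The 250 bases before the start are shown for both genes with a match, each 5′ to 3′ on the gene's strand, so that the matched letters, in capitals, can be read in place beside the signals given next.
Abcb11 chr2:69342617-69342866 (- strand): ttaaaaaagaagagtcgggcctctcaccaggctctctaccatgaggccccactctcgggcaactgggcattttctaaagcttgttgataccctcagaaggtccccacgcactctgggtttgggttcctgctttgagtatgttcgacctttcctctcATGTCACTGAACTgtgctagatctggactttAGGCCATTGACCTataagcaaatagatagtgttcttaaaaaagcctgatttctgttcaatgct
Slco1b2 chr6:141629268-141629517 (+ strand): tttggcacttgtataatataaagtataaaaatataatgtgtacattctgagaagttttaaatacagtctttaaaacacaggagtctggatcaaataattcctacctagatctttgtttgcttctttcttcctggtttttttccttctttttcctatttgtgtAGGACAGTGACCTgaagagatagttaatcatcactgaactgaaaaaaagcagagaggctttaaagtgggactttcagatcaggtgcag
Abcb11 and Slco1b2, with a match to the FXR repeat, differed between the groups by -0.63 and -1.65 (log2, BPD minus GFP). The members searched without a match ran from -2.44 (Slc10a1) to 0.04 (Abcb4) by their brightest probe sets. A link between a match and a fall was not tested.

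Among the uptake carriers, Slc10a1 encodes NTCP, the main sodium-driven carrier of conjugated bile acids. Its brighter probe set (1424898_at) read 1639, 1801 and 3799 in BPD livers 23, 28 and 36 and 10893, 10073 and 8930 in GFP livers 22, 29 and 31. All BPD livers lay below all GFP livers, and BPD liver 36 was the highest of its group. The mean deposited signal was 2413 ± 1203 against 9965 ± 986 (SD, n = 3 each), a ratio of 4.13 (GFP over BPD). After centring the log2 difference was -2.44 ± 0.30 (SE, limma adjusted p = 8.8e-04), a 5.44-fold fall. The other probe set (1450261_a_at) read 938, 1286 and 2792 against 7904, 7478 and 6525. Its difference was -2.57 ± 0.34 (adjusted p = 0.0012), so that both probe sets gave the same direction and nearly the same size. The deposited scaling and quantile normalization gave -2.14 and -1.96 for the brighter probe set, both past the threshold.

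Slco1a1 encodes OATP1A1, a carrier of bile acids, steroid conjugates and drugs that is abundant in male mouse liver. Probe set 1420379_at read 1048, 1234 and 2408 in BPD livers 23, 28 and 36 and 6021, 6627 and 5751 in GFP livers 22, 29 and 31. The groups were separate, and again BPD liver 36 stood highest of the BPD livers. The difference was -2.36 ± 0.28 (adjusted p = 8.4e-04). The second probe set (1449844_at) read 390, 797 and 1164 against 2939, 3505 and 2239, a difference of -2.27 ± 0.34 (adjusted p = 0.0018).

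Slco1a4 encodes OATP1A4, a carrier of the same subfamily, and its gene lies next to that of Slco1a1 in the RefSeq order of coding genes. Its single probe set read 380, 486 and 275 in BPD livers and 229, 400 and 362 in GFP livers. The groups overlapped. The difference was -0.11 ± 0.22 with a 95% interval of -0.61 to 0.40 (adjusted p = 0.746), and the interval lies wholly above the difference of Slco1a1. The sign turned to 0.20 with the deposited scaling and to 0.08 without BPD mouse 36, without passing the threshold. Probe sequences were not used here, so it is not known how far probes of these related genes could read each other's transcripts.

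Slco1b2 encodes OATP1B2, the mouse carrier that stands for the 1B carriers of human liver and takes up unconjugated bile acids and bilirubin. It had 5 probe sets. The brightest (1452494_s_at, whose suffix marks probes that can match more than 1 transcript) read 2735, 3739 and 5861 in BPD livers 23, 28 and 36 and 10345, 9620 and 10090 in GFP livers 22, 29 and 31. Every BPD liver was below every GFP liver, with BPD liver 36 nearest to them. The difference was -1.65 ± 0.25 (adjusted p = 0.0020), a 3.14-fold fall. A second bright probe set (1449394_at) read 3753, 3791 and 6160 against 9071, 9599 and 8370 and fell by 1.32 ± 0.21 (adjusted p = 0.0026).

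Of the dimmer Slco1b2 probe sets, 1427826_a_at read 388, 800 and 1259 against 1609, 1535 and 1327 and fell by 1.30 ± 0.35 (adjusted p = 0.021). Probe set 1427825_at read 59.9, 70.7 and 150.0 against 159, 198 and 161 and fell by 1.17 ± 0.30 (adjusted p = 0.019). It passed the brightness filter through its GFP signals, and fitted without the filter its adjusted p was 0.039. With the deposited scaling neither passed (adjusted p = 0.072 for each), nor did 1427826_a_at with quantile normalization (0.075). Without BPD mouse 28 or GFP mouse 22 neither passed (adjusted p of 0.064 and 0.081, and of 0.071 and 0.054), and 1427825_at did not pass without BPD mouse 23 or GFP mouse 29 either (0.062 and 0.051). The fifth, 1452569_at, was under the brightness filter (signal 98.8) and read 8.75, 50.7 and 87.6 against 90.9, 67.4 and 92.8. Its groups overlapped. Fitted without the filter its difference was -1.13 ± 0.47 (adjusted p = 0.134).

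**Figure D2:**
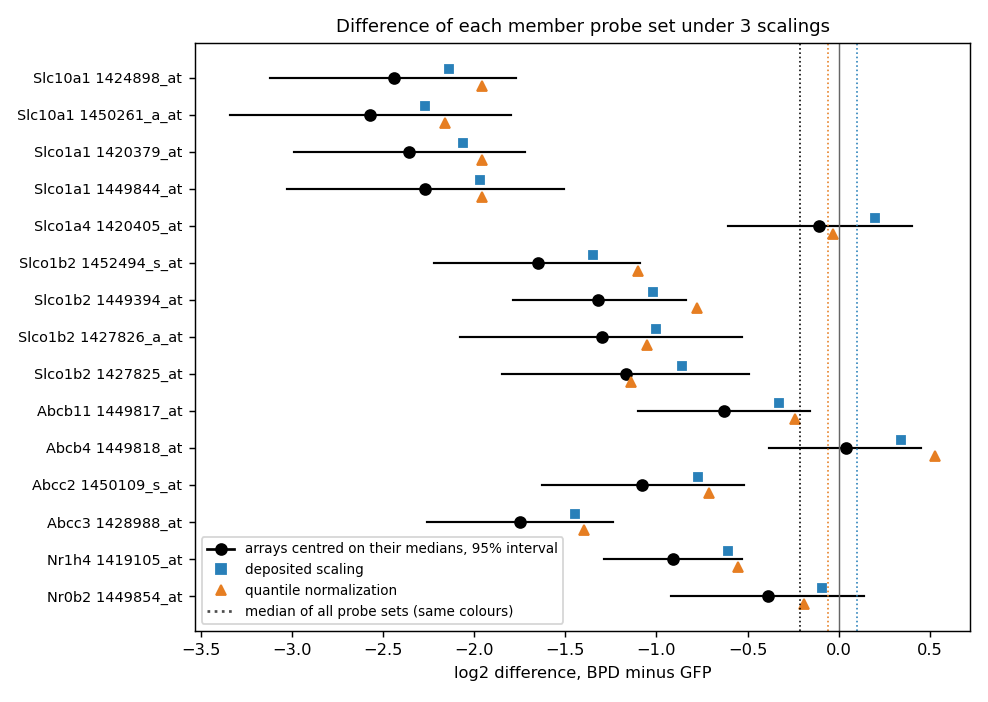
Log2 difference (BPD minus GFP, horizontal axis) of the 15 member probe sets tested. Black points and bars give the value after centring with its 95% interval, blue squares the deposited scaling, orange triangles quantile normalization, and dotted lines the median of all tested probe sets under each scaling. Slc10a1, Slco1a1, Slco1b2 and Abcc3 stay below -0.7 under each scaling, whereas Slco1a4 lies on both sides of 0 and Abcb4 above it.

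Of the canalicular pumps, Abcb11 encodes BSEP, which pumps bile salts into bile. It read 1632, 2288 and 1563 in BPD livers 23, 28 and 36 and 2072, 1941 and 2894 in GFP livers 22, 29 and 31. On the deposited scale BPD liver 28 lay above GFP livers 22 and 29, and after centring the groups did not overlap. The difference was -0.63 ± 0.21 (95% interval -1.10 to -0.16, adjusted p = 0.048). It did not pass with the deposited scaling (-0.33, adjusted p = 0.266) or quantile normalization (-0.24, adjusted p = 0.436), and it passed with 1 of the 6 mice left out, GFP mouse 29, and with none of the other 5 (adjusted p of 0.061 to 0.155).

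Abcb4 encodes the flippase MDR3 (MDR2 in mice), which moves phosphatidylcholine into bile and protects the bile duct lining from bile salts. It read 5520, 4648 and 4420 in BPD livers and 4471, 3577 and 3512 in GFP livers. The lowest BPD liver lay just under the highest GFP liver. After centring the difference was 0.04 ± 0.19 (95% interval -0.38 to 0.45, adjusted p = 0.901), with the deposited scaling 0.34 (adjusted p = 0.115) and with quantile normalization 0.53 (adjusted p = 0.024). Abcb4 is thus the member that reached a call for a rise under 1 scaling and none under the others. After centring the sign was negative with BPD mouse 23 or else GFP mouse 29 or 31 left out (-0.09, -0.07 and -0.02).

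Abcc2 encodes MRP2, the canalicular pump for bilirubin glucuronides and glutathione conjugates. It read 1571, 1496 and 1313 in BPD livers and 1935, 2148 and 3770 in GFP livers 22, 29 and 31. The groups were separate, and GFP liver 31 was far above the other GFP livers. The difference was -1.08 ± 0.25 (adjusted p = 0.012), a 2.11-fold fall. It passed with the deposited scaling (-0.77, adjusted p = 0.044) but not with quantile normalization (-0.71, adjusted p = 0.056). It was -0.77 without GFP mouse 31 (adjusted p = 0.02) and -1.04 without BPD mouse 28 (adjusted p = 0.046). Its probe set also has a suffix that marks probes able to match more than 1 transcript.

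The basolateral pump Abcc3 encodes MRP3, which returns glucuronides and some bile acids to blood and is known to be induced when bile flow is blocked. It read 1228, 958 and 1411 in BPD livers 23, 28 and 36 and 2516, 3383 and 4073 in GFP livers 22, 29 and 31. The highest BPD liver lay well below the lowest GFP liver. The difference was -1.75 ± 0.23 (adjusted p = 0.0011), a 3.36-fold fall. It was -1.45 as deposited and -1.40 after quantile normalization, and -1.90 to -1.55 with a mouse left out, past the threshold each time.

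Within the FXR axis, Nr1h4 encodes FXR. It read 1388, 1477 and 1595 in BPD livers and 2522, 2153 and 2151 in GFP livers, with a gap between the groups larger than the range of either. The difference was -0.91 ± 0.17 (adjusted p = 0.0048), and -0.61 and -0.55 with the deposited scaling and quantile normalization (adjusted p = 0.011 and 0.017). Nr0b2 encodes SHP, the repressor that FXR induces. It read 527, 842 and 737 in BPD livers 23, 28 and 36 and 946, 746 and 556 in GFP livers 22, 29 and 31. These ranges overlapped widely, and the difference of -0.39 ± 0.24 (95% interval -0.92 to 0.14) did not pass (adjusted p = 0.240). The genes whose centred values followed those of Nr1h4 most closely over the 6 arrays, of 8150 others, were Rnf138, Sox13 and Znrf2 (Pearson r of 0.999, 0.998 and 0.998). For Nr0b2 they were Tfg, Eif4e and Tma16 (0.986, 0.975 and 0.968). These are descriptions over 6 arrays that fall into the compared groups.

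Set side by side, the median difference of the kept probe sets was -1.65 for uptake (9 probe sets of 4 genes), -0.63 for canalicular export (3 genes), -1.75 for basolateral export (Abcc3 alone) and -0.65 for the FXR axis (Nr1h4 and Nr0b2), beside -0.21 for all 13575. Relative to that median of all, these were -1.45, -0.42, -1.54 and -0.44. The uptake median leans on Slco1b2, which gives 4 of its 9 probe sets. Within the uptake class 3 of 4 genes fell, and among the pumps into bile 2 of 3, beside 22.1% of all genes. The uptake count stayed at 3 with the deposited scaling and quantile normalization. Of the pumps into bile 1 was lower as deposited, and 0 were lower and 1 higher after quantile normalization. Of all probe sets 9.68% were lower as deposited, and 12.0% were lower and 12.4% higher after quantile normalization. In each BPD liver the uptake median, relative to the GFP mean, was -2.13, -1.82 and -1.03 for mice 23, 28 and 36, and the canalicular median was -0.71, -0.39 and -0.79. BPD liver 36 thus had the smallest fall in uptake, but not in canalicular export.

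Differences between a pair of genes on the same array do not depend on how that array was centred. Relative to the GFP mean, the log2 difference of Slc10a1 minus Abcb4 was -3.11, -2.73 and -1.59 in BPD livers 23, 28 and 36 and -0.09, 0.12 and -0.03 in GFP livers 22, 29 and 31. Slc10a1 minus Abcb11 was -2.12, -2.47 and -0.85 against 0.26, 0.24 and -0.50. In both pairs the uptake carrier was lower relative to the canalicular pump in every BPD liver than in any GFP liver. Abcc3 minus Abcc2 was -0.73, -1.01 and -0.28 against 0.00, 0.27 and -0.27, where BPD liver 36 and GFP liver 31 nearly met. Nr0b2 minus Nr1h4 was 0.24, 0.81 and 0.51 against 0.21, 0.10 and -0.31, so that SHP was higher relative to FXR in the BPD livers, by a narrow gap. These pairs were chosen after the values had been seen and were not tested.

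**Figure D3:**
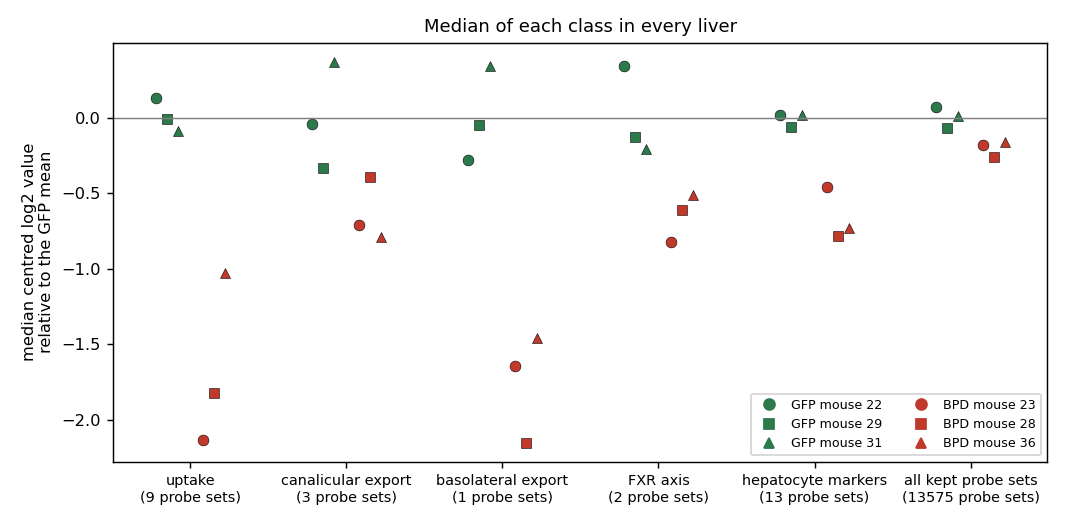
Median of centred log2 values relative to the GFP mean (vertical axis) for each class in each of the 6 livers, with the hepatocyte markers and all 13575 tested probe sets for comparison. Uptake lies at -2.13, -1.82 and -1.03 in the BPD livers, below their hepatocyte marker medians of -0.46, -0.78 and -0.73; basolateral export is Abcc3 alone.

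The hepatocytes themselves were checked with a list of their markers. Albumin (Alb) read 14784 to 17081 in BPD livers and 17975 to 21340 in GFP livers, so the tissue label holds. Of 16 markers, 13 were named and tested, and 12 were lower and 0 higher in BPD livers (0 higher at an unadjusted p under 0.05), beside 22.1% lower and 8.75% higher of 8151 genes. Hpd, which breaks down tyrosine, fell by 1.53 ± 0.14. In the urea cycle Otc fell by 1.43 ± 0.19 and Cps1 fell by 0.96 ± 0.12. Serpinc1, the gene of antithrombin, fell by 0.83 ± 0.12. With the deposited scaling 6 fell and with quantile normalization 3, beside 9.68% and 12.0% of all probe sets. Their summed signal was 158240 to 181946 in BPD and 221833 to 241490 in GFP livers, and their median difference was -0.67 after centring, -0.37 as deposited and -0.14 after quantile normalization. The falls of Slc10a1, Slco1a1, Slco1b2, Abcc3, Abcc2 and Nr1h4 (brightest probe sets) were larger than that median under each of the 3 scalings. Several markers were brighter than the members, however. In GFP livers Fabp1 read 25626 to 25699 and Alb 17975 to 21340, against 8930 to 10893 for Slc10a1. Whether differences are understated at such high signals was not tested, so the marker median may be too small a measure. The markers Hpd and Otc, however, fell by more than Abcc2 and Nr1h4 (-1.08 and -0.91 after centring). The difference of Abcb11 was -0.63, -0.33 and -0.24 in the same order, beside these medians. In whole liver, fewer cells of a type and less RNA per cell cannot be told apart.

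Other cells were checked with lists of macrophage and bile duct (cholangiocyte) markers. For comparison, 22.1% of all genes were lower and 8.75% higher in BPD livers. Of 16 macrophage markers 15 were named, 12 tested and 8 higher in BPD livers with 0 lower (5 higher when GFP mouse 22 was left out, and 4 when BPD mouse 23, BPD mouse 28 or GFP mouse 31 was), with a summed signal of 21005 to 45792 in BPD and 5698 to 18870 in GFP livers. Lyz2 rose by 2.42 ± 0.42, Aif1 by 1.62 ± 0.30, Cd14 by 1.51 ± 0.30 and Cd68 by 1.68 ± 0.39. Of the markers of resident liver macrophages, Clec4f read 748, 513 and 112 in BPD and 398, 299 and 692 in GFP livers, and Vsig4 read 1783, 1402 and 259 against 352, 713 and 497. Neither passed (adjusted p = 0.471 and 0.557), and the groups overlapped. Cd5l, another of these, read 9940, 8581 and 5518 against 2718, 4973 and 899. Its difference of 1.45 ± 0.50 did not pass after centring (adjusted p = 0.054). It passed with the deposited scaling (0.043) and quantile normalization (0.031). Adgre1, C1qa, C1qb and C1qc were among the 8 higher markers, though each lost its call with some mice left out. Cd163 (15.4 to 40.4 in BPD and 17.1 to 275 in GFP livers) and Marco (5.31 to 20.2 in all) were under the filter. Of 15 cholangiocyte markers 12 were named and 5 tested, and Cd24a, Krt23 and Anxa5 rose by 3.62 ± 0.28, 2.11 ± 0.36 and 0.60 ± 0.19 with 0 lower. Anxa5 passed with a mouse left out when that was BPD mouse 36 and in no other case. Cd24a and Krt23 passed the brightness filter through their BPD signals (adjusted p = 7.2e-04 and 0.0082 without the filter). The summed signal of the list was 4238 to 6703 in BPD and 1992 to 2286 in GFP livers, and 7 of its markers were under the filter. Among these, Krt19 read 140, 58.8 and 19.8 in BPD livers and 8.95 to 10.7 in GFP livers, and Cldn7 read 134, 247 and 34.1 against 11.0 to 12.5, with every BPD liver above every GFP liver. Epcam ranged from 10 to 124 in BPD and from 5.88 to 29.0 in GFP livers, with overlap. Krt7 (32.6 to 63.6), Sox9 (64.4 to 87.4) and Cftr (4.20 to 30.0) were dim in both groups. The part of these cells in the falls of the transporters was not tested. The ratio of 3′ to 5′ signal of the Gapdh control, a measure of RNA integrity, was 0.735 to 0.863 in BPD and 0.785 to 0.900 in GFP livers, and the groups overlapped.

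Other transporters of the hepatocyte formed a list of their own. Of 18 listed, 12 were named and 9 tested, and 6 were lower and 2 higher, beside 22.1% and 8.75% of all genes. With the deposited scaling 3 were lower and 2 higher, beside 9.68% and 16.7% of all probe sets, so that the higher count was near that of all. Slc22a7, the basolateral organic anion carrier OAT2, fell by 2.44 ± 0.34 (adjusted p = 0.0014). Abcc6 fell by 1.47 ± 0.22 and the prostaglandin carrier Slco2a1 by 1.23 ± 0.15. The cholesterol pump subunits Abcg5 and Abcg8 fell by 0.92 ± 0.24 and 1.01 ± 0.25 after centring, but with the deposited scaling did not pass (adjusted p = 0.068 and 0.072), nor without BPD mouse 28 (0.079 and 0.059), and Abcg5 not without BPD mouse 23 or GFP mouse 22 (0.060 and 0.068). The count of lower transporters was 3, and that of higher ones 1, with BPD mouse 28 left out, and 4 were lower with BPD mouse 23 or GFP mouse 22 left out. Abcb1a, the drug pump P-glycoprotein, read 421, 403 and 341 in BPD livers and 72.9, 117 and 77.0 in GFP livers and rose by 1.66 ± 0.19 (adjusted p = 7.1e-04). Both higher genes, Abcb1a and Abcc1, passed the brightness filter through their BPD signals, and fitted without the filter their adjusted p was 0.0022 and 0.018. The drug and conjugate pump Abcc1 rose by 1.06 ± 0.23, from GFP signals of 52.4 to 89.5, though not past the threshold without BPD mouse 28 (adjusted p = 0.052). The basolateral exporter Slc51a (OST alpha) was under the filter, with signals of 32.6 to 77.6 over the 6 livers. Slc51b and Abcc4, further basolateral exporters, were not analysed here because no probe set was named for them.

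Enzymes that make and conjugate bile acids fell together with the uptake carriers. Of 18 listed, 17 were tested, and 15 were lower and 0 higher (0 higher at an unadjusted p under 0.05), with 14 lower as deposited and 11 after quantile normalization. After centring 22.1% of all genes were lower and 8.75% higher. Of all probe sets 9.68% were lower as deposited and 12.0% after quantile normalization. Cyp7a1, the rate-limiting enzyme of bile acid synthesis, read 440, 1149 and 1512 in BPD livers and 2642, 3370 and 3002 in GFP livers and fell by 1.99 ± 0.36 (adjusted p = 0.0043). Cyp8b1, which directs synthesis to cholic acid, fell by 3.43 ± 0.45. Slc27a5, the ligase that prepares returning bile acids for conjugation, fell by 2.53 ± 0.24, Cyp27a1 of the alternative pathway fell by 1.39 ± 0.14, and Hsd3b7 fell by 1.07 ± 0.14.

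Among receptors and factors that act on these genes, 15 of 20 were tested, and 9 were lower and 0 higher (0 higher at an unadjusted p under 0.05), with 4 lower as deposited and 4 after quantile normalization. The shares of all genes after centring were 22.1% lower and 8.75% higher. Those of all probe sets were 9.68% lower as deposited and 12.0% lower after quantile normalization. Nr1i3, the xenobiotic receptor CAR, whose activators induce Abcc3, read 361, 417 and 467 in BPD livers and 1950, 1871 and 2129 in GFP livers and fell by 2.52 ± 0.17 (adjusted p = 1.1e-04). Its groups were far apart. Ppara fell by 1.55 ± 0.26, Onecut1 (HNF6) by 1.09 ± 0.21, and Fgfr4, the hepatocyte receptor of the gut hormone FGF15, by 0.87 ± 0.18. LRH-1 (Nr5a2), HNF4 alpha (Hnf4a) and RXR alpha (Rxra, the partner of FXR) fell by 0.84 ± 0.23, 0.58 ± 0.19 and 0.64 ± 0.20 after centring. With the deposited scaling none of these 3 passed (adjusted p = 0.099, 0.195 and 0.175), nor did any of them when BPD mouse 28 or else GFP mouse 22 or 31 was left out (adjusted p from 0.063 to 0.149). Each of those 3 omissions left 4 lower genes in this list, and leaving out BPD mouse 23 left 6.

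Genes known as FXR targets, beyond the members, had 11 of 14 tested, with 7 lower and 1 higher (7 and 1 as deposited, 4 and 2 after quantile normalization). Of all genes 22.1% were lower and 8.75% higher after centring. Of all probe sets 9.68% were lower and 16.7% higher as deposited, and 12.0% and 12.4% after quantile normalization. This list includes Cyp7a1 and Cyp8b1, which FXR represses. Ugt2b1, a glucuronosyltransferase, fell by 2.40 ± 0.32, Fetub by 2.15 ± 0.24 and kininogen (Kng1) by 0.95 ± 0.17. Fgf21, a hepatic hormone, rose by 1.04 ± 0.19 from dim GFP signals of 81.4 to 91.3. It passed the brightness filter through its BPD signals (adjusted p = 0.012 without the filter). The list thus held genes that fell and 1 gene that rose, a higher count near the share of all genes.

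Proteins of the canalicular membrane and its scaffold made up a further list. Of 15 listed 14 were tested, and 5 were lower and 2 higher, beside 22.1% lower and 8.75% higher of all genes. Their median was -0.24 against -0.21 for all probe sets. With the deposited scaling 4 were lower and 4 higher, beside 9.68% and 16.7% of all probe sets. With quantile normalization 4 were lower and 2 higher, beside 12.0% and 12.4%. Dpp4 and Ceacam1, glycoproteins of the canalicular membrane, fell by 1.66 ± 0.20 and 1.45 ± 0.22. The scaffold genes Slc9a3r1 (NHERF1) and Pdzk1 fell by 1.12 ± 0.16 and 0.93 ± 0.19. Moesin (Msn) and ezrin (Ezr), which tie membrane proteins to actin and are abundant in leukocytes and epithelia, rose by 1.60 ± 0.35 and 0.67 ± 0.17. Radixin (Rdx), their relative at the canaliculus, fell by 0.57 ± 0.17 after centring and did not pass with the deposited scaling (adjusted p = 0.170) or with any of BPD mice 28 and 36 and GFP mice 22 and 31 left out (0.077 to 0.126). Ezr did not pass with any of BPD mice 23 and 28 and GFP mouse 29 left out (0.051 to 0.081).

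**Figure D4:**
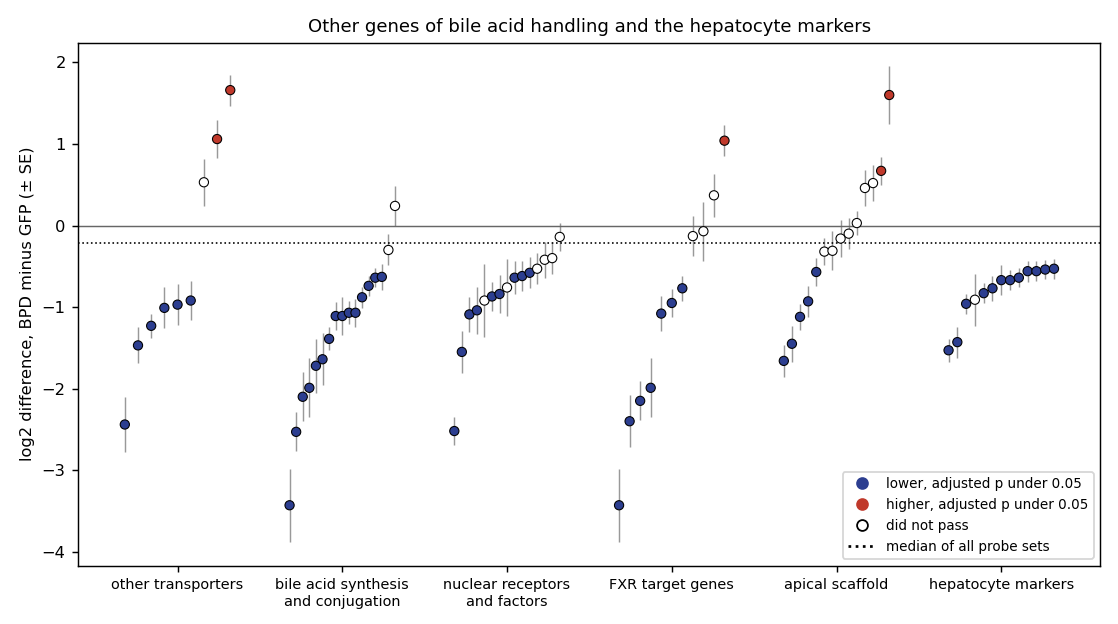
Log2 difference (BPD minus GFP, vertical axis, bars ± SE) of each tested gene of the 5 other pathway lists and of the hepatocyte markers, by its brightest probe set after centring. Filled blue points were lower and red points higher at an adjusted p under 0.05, open points did not pass, and the dotted line marks the median of all probe sets at -0.21. Falls prevail in bile acid synthesis (15 of 17) and in the hepatocyte markers (12 of 13), beside 22.1% of all genes. Abcb1a, which passed the filter through its BPD signals, has the highest difference among the other transporters, at 1.66.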

How the data were processed

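The 6 arrays were one-colour. The intensities are deposited on a linear scale and were made by the authors with MAS5, per the submitters' processing notes, with version and target not given in the sources used here. Their trimmed mean (2% cut at each end) is 499.9 on every array. Of 22690 probe sets 64 controls were left out, and 20380 of the rest have 1 symbol in the platform annotation. Values were taken as log2(signal + 16.3), the constant being 10% of the median of all values, and centred on each array's median. This scale understates changes of dim probe sets. Probe sets with a mean above the 40th percentile (signal 98.8) over all arrays were kept, 13575 in all, 15 of the 16 member probe sets among them. The groups were set against each other in limma 3.58.1 under R 4.3.3 (lmFit, eBayes with trend, 2-sided, 4 residual degrees of freedom), with Benjamini-Hochberg adjustment over all kept probe sets and a threshold of 0.05. A gene is represented by its brightest kept probe set where counts are of genes. On simulated data of this comparison, 200 of 13575 probe sets were changed. The fit recovered 91.0% of log2 changes of 2, 28.5% of changes of 1 and 0% of changes of 0.5. In the real data 2758 probe sets were called lower and 1124 higher. The adjustment is less strict with so many calls, so the recovered shares do not carry over to the real data. Only 3 mice a group limit the precision.

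The members and the 8 other lists were chosen with earlier results of these data known. Genes named were the members, up to 4 genes with the smallest p of each list and a fixed set (Slc51a, Slc51b, Abcc4, Nr5a2, Hnf4a, Rxra, Cyp7a1 and Cyp8b1). For Nr1h4 and Nr0b2 the 3 genes of closest pattern were added. Alb, Abcc1, Abcg5, Abcg8, Ezr, Msn, Rdx, Fgf21 and the markers Clec4f, Vsig4, Cd5l, Adgre1, C1qa, C1qb, C1qc, Cd163, Marco, Krt19, Cldn7, Epcam, Krt7, Sox9 and Cftr were named after their values were seen. The virus could not be checked through Pfkfb1, for which no probe set was named. Protein sequences were not used here, and 1 gene and 1 motif of the plan are not reported here. In all, 15 alternatives of scaling, added constant, filter, moderation, RNA quality and mouse left out were run.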

Additional observations from a re-analysis of the deposited data

How the results depend on the processing

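The 15 tested member probe sets gave 225 values under the 15 alternatives, of which 197 kept their direction and their side of the threshold, 22 lost the call, 1 gained it and 5 changed sign. An added constant of 1 and robust moderation changed no member call. The count of lower member probe sets was 9 to 12 over the alternatives and 9 to 11 with a mouse left out. That of higher ones was 0 except with quantile normalization, where it was 1. Class medians moved by more than the spread between mice with the deposited scaling for canalicular export (-0.33) and the FXR axis (-0.35), and with quantile normalization for uptake (-1.14), canalicular export (-0.24), basolateral export (-1.40) and the FXR axis (-0.37). The sign of Slco1a4 turned with the deposited scaling (0.20), and its values with a mouse left out ran from -0.29 to 0.08. Those of Abcb4 ran from -0.09 to 0.19. Abcb11 also lost its call with the larger constant, no filter, the 20th percentile filter, moderation without trend and the Gapdh ratio as covariate (adjusted p of 0.070, 0.064, 0.054, 0.056 and 0.118). Apart from the scalings, whose shift of all values is given with the results, the causes were not tested. With 3 arrays a group, 28.5% of simulated log2 changes of 1 and 0% of those of 0.5 were recovered. The simulation changed 200 of 13575 probe sets, far fewer than were called in the real data. No paired analysis was possible because the groups share no mouse number.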
